A study of Mus musculus with 6 samples.

Results

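The genes described here are 9 genes of the complement system. They were taken by symbol from the deposited count and TPM matrices, and all 9 of 9 symbols were found among the 55487 genes listed. They are the 3 chains of C1q (C1qa, C1qb and C1qc), the central component C3, the alternative pathway proteins properdin (Cfp) and factor B (Cfb), and the receptors C3ar1, C5ar1 and Itgam. TPM is a read count divided by gene length and scaled to the same sum in every library. It allows a comparison between genes as far as that length fits their RNA. RNA came from macrophages differentiated for 12 days from mouse embryonic stem cells with growth factors and cytokines (activin A, BMP-4 and FGF2 as inducers of mesoderm, VEGF and SCF; M-CSF and IL-3 for the myeloid lineage), a protocol for primitive macrophages. There were 3 libraries from wild-type stem cells and 3 from stem cells of the Ts1Cje mouse, a Down syndrome model with an extra copy of a distal part of chromosome 16. All 6 libraries shared the same culture protocol. The labels number the libraries of each genotype by lot and do not say whether a lot is a separate stem cell line, clone or differentiation, so the spread behind each p-value is that of these samples alone and may be technical.

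Complement is a cascade of proteins that tags particles, dying cells and, in the developing brain, synapses for uptake by phagocytes. C1q recognises the target and starts the classical pathway, all pathways meet at the cleavage of C3, and fragments of C3 and C5 act on phagocytes through their receptors. The liver makes most complement of the blood, while C1q comes mainly from macrophages and, in the brain, from microglia. None of the 9 genes lies on chromosome 16 (0 of 9), so none is in the segment present in extra copy.

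The 3 C1q genes lie side by side on the minus strand of chromosome 4 (mm10), C1qb at chr4:136880129-136886187, C1qc at chr4:136889804-136893065 and C1qa at chr4:136895917-136898803, with gaps of 3616 and 2851 bp. Each has 3 exons in its longest transcript. The chains share a collagen-like stalk, in which glycine recurs in each triplet of amino acids. The longest unbroken run of codon triplets that begin with a glycine codon (GGN) in each coding sequence is shown here, 5′ to 3′ with the glycine codons in capitals, to show what the chains share and how they differ. The run has 16 triplets in C1qa (exon 3), 29 in C1qb (across exons 2 and 3) and 16 in C1qc (exon 3), in GENCODE M21 transcripts. On the minus strand of mm10 these lie at chr4:136896565-136896708, chr4:136880700-136882217 (an intron within) and chr4:136890439-136890582.
C1qa: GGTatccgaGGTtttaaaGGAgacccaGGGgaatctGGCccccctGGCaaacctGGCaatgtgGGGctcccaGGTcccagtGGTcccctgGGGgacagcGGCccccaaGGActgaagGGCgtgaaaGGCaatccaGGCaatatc
C1qb: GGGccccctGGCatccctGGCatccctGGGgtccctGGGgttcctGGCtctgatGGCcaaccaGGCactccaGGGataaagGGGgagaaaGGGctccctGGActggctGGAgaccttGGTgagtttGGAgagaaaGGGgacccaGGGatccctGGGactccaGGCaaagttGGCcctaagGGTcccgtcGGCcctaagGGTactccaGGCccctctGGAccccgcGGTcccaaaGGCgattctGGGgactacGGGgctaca
C1qc: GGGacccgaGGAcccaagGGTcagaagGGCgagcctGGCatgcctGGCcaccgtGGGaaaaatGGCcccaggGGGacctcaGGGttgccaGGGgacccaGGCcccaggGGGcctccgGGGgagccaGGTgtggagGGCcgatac
Below the shared glycine pattern the letters differ. The longest stretch of identical bases between whole transcripts was 12 for C1qa and C1qb, 11 for C1qa and C1qc and 15 for C1qb and C1qc. No other annotated gene overlaps any of the 3.

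Because C1qb and C1qc had similar profiles over the libraries (below), the bases before their RefSeq start sites (GRCm38.p6) are shown as well. The sequence of C1qb is the 250 bases before the start (chr4:136886201-136886450, minus strand). That of C1qc is the 99 distal bases of the same window (chr4:136893066-136893164, minus strand), since a GENCODE transcript of C1qc begins inside that window. Capitals mark GAGGAA, the core letters bound by PU.1 (Spi1), a transcription factor of macrophages, or its reverse complement.
C1qb: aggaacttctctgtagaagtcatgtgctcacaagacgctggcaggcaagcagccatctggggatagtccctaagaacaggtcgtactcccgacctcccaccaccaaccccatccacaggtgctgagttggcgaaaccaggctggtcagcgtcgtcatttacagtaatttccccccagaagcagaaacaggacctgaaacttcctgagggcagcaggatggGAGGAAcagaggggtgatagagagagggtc
C1qc: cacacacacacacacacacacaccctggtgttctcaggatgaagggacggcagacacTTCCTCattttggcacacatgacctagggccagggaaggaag
The match lies 30 to 25 bases before the RefSeq start in C1qb and 193 to 188 bases before it in C1qc. The GENCODE start of C1qc directly follows the stretch shown, so it lies much nearer to the match. That of C1qb lies a few bases past its RefSeq start. The distances to RefSeq starts should therefore not be compared between these genes. Of 7 genes with a promoter entry, C1qb, C1qc and Itgam (2 matches) held GAGGAA on either strand in 250 bases, and 23.4% of 32544 promoters do. The letters TGCTGAC (MARE half-site), TGANTCA (AP-1) and TTGCNNAA (C/EBP) and an interferon response element were not in the windows of C1qb or C1qc on either strand. Over all promoters 3.79%, 6.73%, 9.58% and 2.98% held them. C1qa and Cfb have no entry in that table.

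Total counts were 25484294 to 32658148 per library. All 12 macrophage markers listed had a mean of at least 1 TPM. Summed levels of the 8 lists for other cell types were between 0 and 33.3 TPM per library, with Alb, Cd3e and Cd3g at 0 in all. Summed TPM of 12 G2/M genes was 85.3, 623 and 652 in wild-type libraries against 707, 607 and 354 in Ts1Cje replicates 1 to 3, so wild-type replicate 1 stood lowest. On the first principal component that library scored -67.5, against -13.6 to 29.1 in the other 5.

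Levels of the 9 genes in TPM were far apart. C1qb was highest, at rank 17 of all genes by mean TPM, followed by C1qc (rank 49), C3ar1 (rank 52), C5ar1 (rank 137), Cfp (rank 140), C1qa (rank 256), Itgam (rank 3377), C3 (rank 12629) and Cfb (rank 16197). C1qb exceeded C1qc, C3ar1 exceeded C5ar1, C1qa exceeded Itgam and Itgam exceeded C3 in 6 of 6 libraries. Other neighbours in that order were not separated: C1qc was above C3ar1 in 3 of 6 libraries, C5ar1 above Cfp in 3 of 6, Cfp above C1qa in 4 of 6 and C3 above Cfb in 5 of 6. The cultures thus held abundant RNA for C1q, properdin and the receptors C3ar1 and C5ar1, and little for C3 and factor B. In this order Cfb and Itgam may stand too low, since they share exons with other annotated genes (below). C1qc may stand too low through the length used for TPM (below), so its order against C3ar1 is open.

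**Figure D1:**
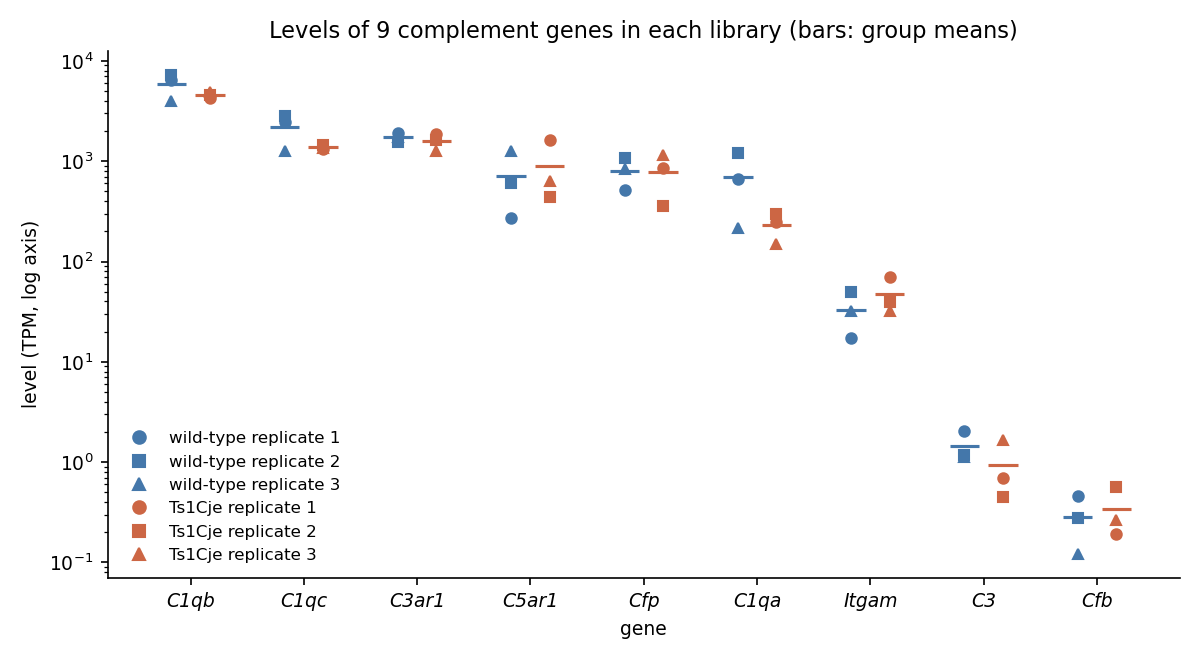
Level of each of the 9 genes in TPM (log axis) in 3 wild-type (blue) and 3 Ts1Cje (orange) libraries, with the symbol giving the replicate and bars the group means. The points of the genotypes overlap for every gene, and C1qb lies highest while C3 and Cfb lie lowest.

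Between genotypes 0 of the 8 genes tested passed (edgeR's quasi-likelihood test, adjusted by Benjamini-Hochberg for the 13821 genes in the fit, threshold 0.05). Over all genes 0.00724% were called by that test. DESeq2 also called 0 of the 8 (0.405% of all genes), and limma-voom 0 (0.00724%). At an unadjusted p under 0.05 there was 1 gene lower in Ts1Cje, C1qa, where 2.8% of all genes were lower, and 0 higher, where 2.99% were higher. The genotypes separated in TPM with no overlap for 0 of the 8, against 11.1% of all genes tested (5.66% lower and 5.46% higher in Ts1Cje). Log2 fold changes of Ts1Cje over wild-type were positive for 3 (Cfp, at 0.00, among them) and negative for 5, with a median of -0.25, beside -0.01 over all genes, of which 50.8% were negative. Cfb had too few counts for the test. In bulk RNA, fewer cells of a type and less RNA per cell cannot be told apart.

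C1qa encodes the A chain, which with the B and C chains forms the C1q heterotrimer. Its level was 666, 1203 and 217 TPM in wild-type and 250.03, 297 and 150.4 TPM in Ts1Cje replicates 1 to 3. Wild-type replicates 1 and 2 lay above every Ts1Cje library, and wild-type replicate 3 lay inside the Ts1Cje range. Means were 696 ± 494 and 233 ± 74.97 TPM (SD, n = 3). The log2 fold change was -1.60 ± 0.55 (SE; 95% interval -2.88 to -0.31), with an unadjusted p of 0.0212 and an adjusted p of 0.792 by edgeR. It was -2.02 without wild-type replicate 3 (adjusted p = 0.0969, edgeR) and -0.96 without wild-type replicate 2 (adjusted p = 0.975, edgeR), and adjusted p ranged from 0.0969 to 0.990 over 17 alternatives.

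C1qb, the B chain, had 6488, 7279.8 and 3976 TPM in wild-type and 4299, 4556 and 4939 TPM in Ts1Cje replicates 1 to 3. Wild-type replicates 1 and 2 were again the highest, and wild-type replicate 3 was the lowest of the 6. Means were 5915 ± 1725 and 4598 ± 322 TPM (SD, n = 3), and the log2 fold change was -0.36 ± 0.26 (SE; 95% interval -0.97 to 0.25; adjusted p = 0.827, edgeR). C1qc, the C chain, had 2458, 2834 and 1278 TPM in wild-type and 1329, 1442 and 1342 TPM in Ts1Cje replicates 1 to 3. Its libraries stood in the same arrangement, with wild-type replicate 3 lowest. Its log2 fold change was -0.67 ± 0.30 (SE; 95% interval -1.36 to 0.01; adjusted p = 0.792, edgeR), from 2190.2 ± 812 to 1371 ± 61.6 TPM (SD, n = 3). Without wild-type replicate 3 the values were -0.58 for C1qb and -0.95 for C1qc, with adjusted p of 0.231 and 0.104 by edgeR. Without wild-type replicate 2 they were -0.19 and -0.46, each with an adjusted p of 0.975 by edgeR.

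The spread of C1q was wider in wild-type than in Ts1Cje libraries. For C1qc the SD of log2 CPM (counts scaled to the library, prior count 2) was 0.64 in wild-type and 0.09 in Ts1Cje, for C1qb 0.49 and 0.19 and for C1qa 1.27 and 0.42. No test of spread was run on 3 libraries a group, and the share of all genes with a wider spread in wild-type was not counted. Most macrophage markers listed did not share the arrangement of C1q. Wild-type replicates 1 and 2 were the highest 2 of the 6 libraries for C1qa, C1qb and C1qc, and so they were for 3 of 12 macrophage markers, Csf1r, Mertk and Mpeg1, and for 14.5% of all genes tested. Csf1r, the receptor for M-CSF, had 1232, 795 and 564 TPM in wild-type and 583, 607 and 538 TPM in Ts1Cje replicates 1 to 3. Adgre1, which encodes F4/80, had 995, 1209 and 1129 TPM in wild-type and 1318, 935 and 1059.8 TPM in Ts1Cje, without that arrangement. The summed macrophage list was 34784, 20269 and 15171 TPM in wild-type and 17772, 24101 and 34896 TPM in Ts1Cje. Most of the swing of that sum was that of 1 gene, Lyz2. It had 23025, 10201 and 5333 TPM in wild-type and 7638, 14388 and 24366 TPM in Ts1Cje replicates 1 to 3. Cd68, the next highest marker, had 5568 to 6909 TPM over the 6 libraries. The part of these markers in the C1q result was not tested.

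The 3 chains were not present in equal RNA amounts. C1qb held 64.3 to 76.8% of the summed C1q TPM, C1qc 20.9 to 25.6% and C1qa 2.34 to 10.6%, over 6 libraries. TPM divides C1qc by the merged length of its exons, 1931 bases, while its coding transcript used above has 1203. For C1qa and C1qb the merged and transcript lengths are equal. C1qc may thus be understated beside the other chains, here and in the ratios below. The sum made up 0.961%, 1.13% and 0.547% of all TPM in wild-type libraries against 0.588%, 0.630% and 0.643% in Ts1Cje replicates 1 to 3. C1qb exceeded C1qa by 9.74, 6.05 and 18.3 times in wild-type and by 17.2, 15.3 and 32.8 times in Ts1Cje replicates 1 to 3. In the C1q protein the chains stand in equal number.

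Ratios between chains also differed between libraries. The ratio of C1qc to C1qb in TPM was 0.379, 0.389 and 0.321 in wild-type libraries against 0.309, 0.316 and 0.272 in Ts1Cje replicates 1 to 3. All 3 Ts1Cje libraries lay below all 3 wild-type libraries, with means of 0.363 ± 0.0366 and 0.299 ± 0.0239 (SD, n = 3), which is -0.28 on the log2 scale. The gap between the lowest wild-type and the highest Ts1Cje value was small beside that spread, and no test was made of a ratio chosen from these genes. The ratio of C1qa to C1qb was 0.103, 0.165 and 0.0546 in wild-type libraries against 0.0582, 0.0652 and 0.0305 in Ts1Cje, and the groups overlapped. The ratio of C1qa to C1qc, at 0.271, 0.425 and 0.170 in wild-type libraries against 0.188, 0.206 and 0.112 in Ts1Cje, overlapped as well. Differences of these ratios between genotypes were -1.0 and -0.72 on the log2 scale.

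**Figure D2:**
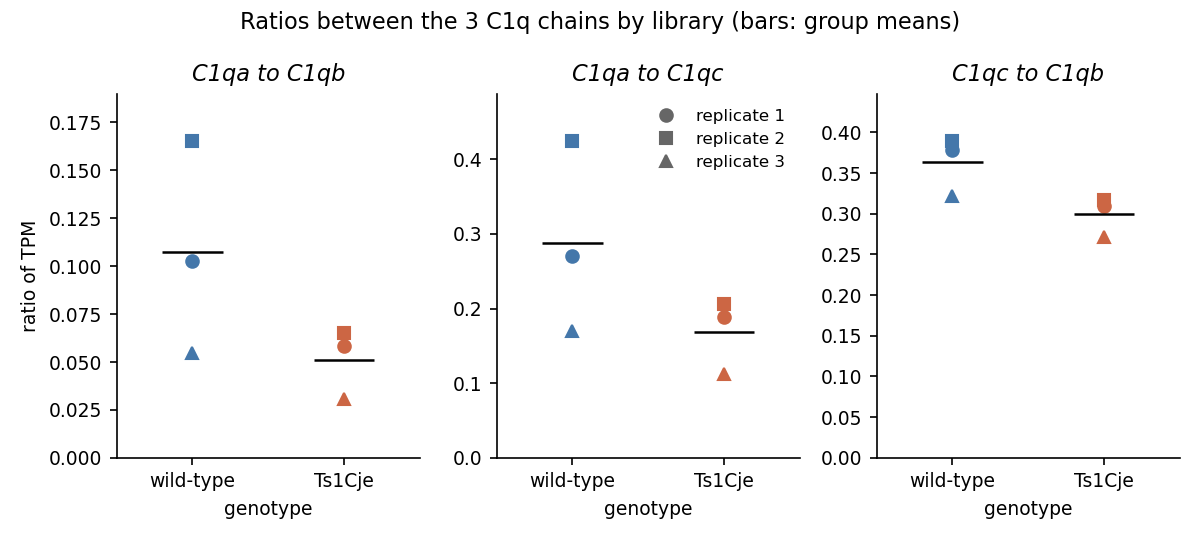
Ratio of TPM between pairs of C1q chains in wild-type (blue) and Ts1Cje (orange) libraries, on linear axes from 0, with bars for group means and symbols for replicates. The C1qc to C1qb ratio lies between 0.321 and 0.389 in wild-type and between 0.272 and 0.316 in Ts1Cje libraries, while both ratios with C1qa overlap.

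Likeness of profiles was measured as the root mean square difference of log2 CPM over the 6 libraries, each gene centred on its mean, among 10982 other genes. C1qb and C1qc differed by 0.18, which placed C1qb at rank 55 of the genes nearest to C1qc and C1qc at rank 237 of those nearest to C1qb. C1qa differed from C1qc by 0.59 and from C1qb by 0.76, with ranks of 89 and 524 among the genes nearest to C1qa. In the other direction C1qa stood far down, at rank 6597 of the genes nearest to C1qc and rank 9707 of those nearest to C1qb. The 3 genes nearest to C1qb outside the complement genes were Dhrs7 (0.04), Paip2 (0.06) and Zbtb20 (0.07). Nearest to C1qc were 5031425E22Rik (0.04), Serinc5 (0.04) and Lrrc61 (0.08), and nearest to C1qa were Plxna4os1 (0.26), Gm29216 (0.27) and Vgll4 (0.31). C1qa has a larger swing between libraries than most genes, so its nearest genes lie farther away.

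C3 is cleaved when any pathway is active and labels surfaces with its larger fragment. Its gene (chr17:57203970-57228136, minus strand, 41 exons in the longest transcript) had counts of 88, 54 and 50 in wild-type libraries against 39, 20 and 91 in Ts1Cje replicates 1 to 3. In TPM these were 2.02, 1.18 and 1.12 against 0.694, 0.447 and 1.67. Ts1Cje replicates 1 and 2 were the lowest and Ts1Cje replicate 3 lay inside the wild-type range. The log2 fold change was -0.57 ± 0.62 (SE; 95% interval -2.01 to 0.87; adjusted p = 0.865, edgeR), and -1.39 without Ts1Cje replicate 3 (adjusted p = 0.940, edgeR). It was -0.22 without Ts1Cje replicate 2 and -0.24 without wild-type replicate 1. The 3 nearest profiles were those of Abca1 (0.21), Csad (0.24) and Mterf1a (0.25). Abca1, a cholesterol exporter, had 487, 350 and 232 TPM in wild-type and 151, 107 and 308 TPM in Ts1Cje replicates 1 to 3.

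Properdin, encoded by Cfp (chrX:20925454-20931555, minus strand), stabilises the enzyme complex of the alternative pathway and is made by myeloid cells. Its level was 511, 1079 and 829 TPM in wild-type and 847, 357 and 1158 TPM in Ts1Cje replicates 1 to 3. Ts1Cje replicate 2 was lowest and Ts1Cje replicate 3 highest. The log2 fold change was 0.00 ± 0.45 (SE; 95% interval -1.05 to 1.05; adjusted p = 0.998, edgeR). The interval spans changes of either sign, and the sign turned negative under 12 of 17 alternatives.

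Factor B is the protease of the same pathway. Cfb (chr17:34856374-34862518, minus strand) had counts of 11, 7 and 3 in wild-type libraries against 6, 14 and 8 in Ts1Cje replicates 1 to 3, in all 21 against 28. The ratio of summed scaled counts, Ts1Cje over wild-type, was 1.16 with an exact 95% interval of 0.634 to 2.14, which covers counting error only. Factor D (Cfd), which cleaves factor B, had 0 counts in all 6 libraries, where 3 counts, the limit that 0 allows, come to 0.0919 to 0.118 CPM (counts scaled to the library total). Cfb shares 2246 exonic bases with the annotated readthrough gene Gm20547 on the same strand, so reads there may not have been assigned to it.

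C3ar1, the receptor for the C3a fragment (chr6:122847138-122856161, minus strand), was the steadiest of the 8. It had 1912, 1559.8 and 1724 TPM in wild-type and 1856, 1632 and 1254 TPM in Ts1Cje replicates 1 to 3. Its pooled SD within genotypes was 0.19 on the log2 CPM scale, and 27.3% of 10983 genes had a smaller one. In log2 the fold change was -0.14 ± 0.19 (SE; 95% interval -0.59 to 0.31; adjusted p = 0.900, edgeR).

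C5ar1, the receptor for C5a, a potent attractant of phagocytes (chr7:16246743-16259540, minus strand), was the most variable within genotypes. It had 272, 611 and 1273 TPM in wild-type and 1631, 439 and 639 TPM in Ts1Cje replicates 1 to 3. The lowest library was wild-type replicate 1 and the highest Ts1Cje replicate 1, with both groups covering most of the range. Its pooled SD was 1.02 (log2 CPM), and 95.6% of genes had a smaller one, against a median of 0.28 over all. Its log2 fold change was 0.33 ± 0.61 (SE; 95% interval -1.10 to 1.77; adjusted p = 0.925, edgeR). Leaving out wild-type replicate 1 gave -0.06, leaving out wild-type replicate 3 gave 1.02 and leaving out Ts1Cje replicate 1 gave -0.35. The libraries lowest and highest in C5ar1 were also those lowest and highest in the G2/M sum (85.3 and 707 TPM), whose part in the result was not tested. Pooled SDs of C1qa (0.95), C3 (0.79), Cfp (0.76) and Itgam (0.64) were also larger than those of 87.0 to 94.6% of genes.

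Itgam encodes CD11b, which pairs with CD18 (Itgb2) to form complement receptor 3, a receptor for C3-coated particles. Itgam (chr7:128062640-128118491, plus strand) had 17.1, 49.2 and 31.8 TPM in wild-type and 69.5, 39.7 and 32.3 TPM in Ts1Cje replicates 1 to 3. Wild-type replicate 1 was the lowest and Ts1Cje replicate 1 the highest, and the other 4 libraries overlapped. The log2 fold change was 0.53 ± 0.40 (SE; 95% interval -0.40 to 1.45; adjusted p = 0.827, edgeR), and 0.22 without wild-type replicate 1 (adjusted p = 0.997, edgeR) and 0.17 without Ts1Cje replicate 1 (adjusted p = 0.998, edgeR). The library with the lowest Itgam was also the one with the lowest G2/M sum (85.3 TPM), and the library with the highest Itgam had the highest (707 TPM); their part in the result was not tested. Itgb2 had 352, 435 and 428 TPM in wild-type and 433, 378 and 522 TPM in Ts1Cje, a log2 fold change of 0.15 ± 0.19 (SE; adjusted p = 0.888, edgeR). The ratio of Itgam to Itgb2 was 0.0487, 0.113 and 0.0743 in wild-type libraries against 0.161, 0.105 and 0.0617 in Ts1Cje replicates 1 to 3, and the groups overlapped. Itgam shares 3450 exonic bases of 5024 with the annotated gene Gm49368 on the same strand, which had 0 to 3 counts, so that its level may be understated in every library. Its 3 nearest profiles were Cd93 (0.15), Dck (0.15) and Psmc3ip (0.16).

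**Figure D3:**
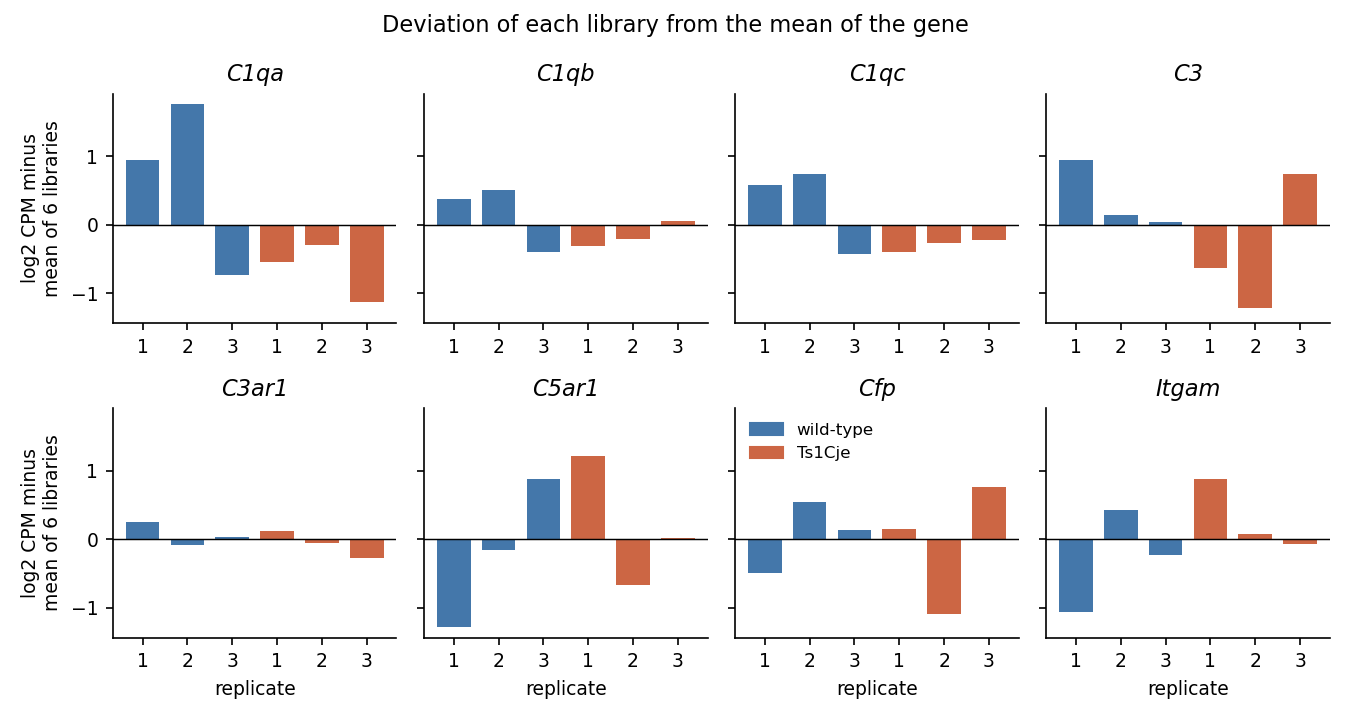
Deviation of each library from the mean of the gene in log2 CPM for the 8 tested genes, wild-type in blue and Ts1Cje in orange, replicates 1 to 3 from left to right in each colour. C1qb and C1qc share an arrangement with wild-type replicates 1 and 2 high, C3ar1 stays near 0, and C1qa and C5ar1 reach farthest from it.

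The rest of the complement system was read from a list of 44 further genes. All 44 were in the table, 13 had 0 counts in all 6 libraries and 21 were tested. Of these 12 had a positive and 9 a negative log2 fold change, with a median of 0.17 beside -0.01 over all genes. None passed edgeR (0 of 21), 0 had an unadjusted p under 0.05 (5.79% over all genes), and DESeq2 and limma-voom each called 0. In TPM the genotypes did not overlap for 1 of the 21 (11.1% over all genes), Fcna, which encodes ficolin A, a recognition protein of the lectin pathway. In CPM with TMM factors they did not overlap for 3 of the 21 (12.1% over all genes), Fcna, higher in Ts1Cje, and Cr1l and Lrp1, both lower. Fcna had 21.3, 55.4 and 44.3 TPM in wild-type and 58.8, 65.8 and 71.6 TPM in Ts1Cje replicates 1 to 3. Its log2 fold change was 0.72 ± 0.33 (SE; adjusted p = 0.792, edgeR), with wild-type replicate 1 far below the rest. It was 0.41 without that library and 1.01 without wild-type replicate 2 (adjusted p = 0.989 and 0.975, edgeR).

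By role, 1 of the 7 other classical pathway genes had 0 counts in all libraries and 3 were tested, 3 of 8 lectin pathway genes had 0 counts and 2 were tested, and 5 of 7 terminal components had 0 counts and 1 was tested. Of the proteases that act with C1q, C1ra had a mean of 1.26 TPM and C1s1 had 3 counts in all, while C2, the next protease, had a mean of 27.3 TPM. Among the terminal components, which form the membrane pore, C5 (Hc) had 0 counts and C8g was tested at a mean of 9.69 TPM. Mbl1, Mbl2 and Colec10 of the lectin pathway also had 0 counts. Masp1, a lectin pathway protease and the 1 gene of the list on chromosome 16 (chr16:23449417-23520815), had a mean of 2.12 TPM and a log2 fold change of 0.45 ± 0.35 (SE; adjusted p = 0.828, edgeR). It was 0.064 without Ts1Cje replicate 2, its highest library. The gene lies in the proximal part of the chromosome, away from the distal segment present in extra copy.

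**Figure D4:**
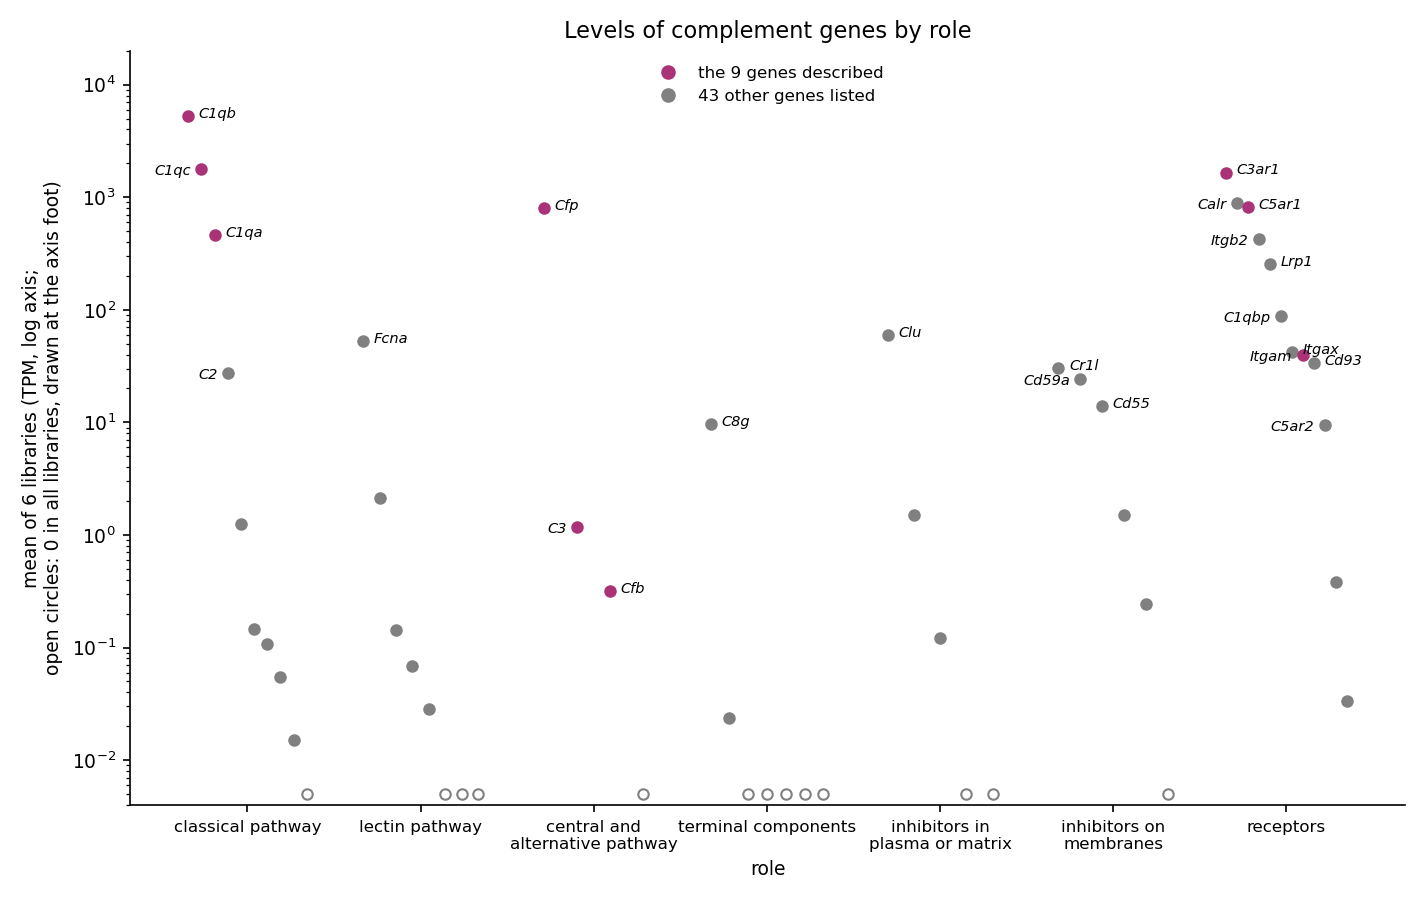
Mean TPM over 6 libraries (log axis) of the 9 genes described (purple) and 43 other complement genes (grey), by role, with open circles at the foot for the 13 genes at 0 in all libraries. C1q chains, Cfp and several receptors lie highest, and most terminal components lie at 0.

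Of 6 inhibitors in plasma or matrix 2 had 0 counts in all libraries and 3 were tested, and of 6 on membranes 1 had 0 counts and 5 were tested. Cr1l (Crry), a membrane inhibitor of C3 cleavage in rodents, was at 31.6, 33.2 and 31.8 TPM in wild-type and 31.9, 26.2 and 26.8 TPM in Ts1Cje replicates 1 to 3. Its log2 fold change was -0.18 ± 0.13 (SE; adjusted p = 0.820, edgeR), and the groups overlapped in TPM but not in CPM. Cd55, which takes apart the C3-cleaving enzyme, was at 2.87, 18.2 and 4.37 TPM in wild-type and 20.9, 4.17 and 33.2 TPM in Ts1Cje, so replicates of each genotype differed several-fold. Clu, which binds the forming pore, and Cd59a, which blocks it, had log2 fold changes of -0.29 ± 0.33 and 0.41 ± 0.36 (SE). Clu was -0.73 without Ts1Cje replicate 1 and -0.047 without Ts1Cje replicate 3, and Cd59a was 0.00017 without Ts1Cje replicate 1 and 0.72 without Ts1Cje replicate 2.

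Among other receptors and binding proteins, Calr, an endoplasmic reticulum chaperone that can bind C1q at the cell surface, had the highest mean, 898 TPM. It went with a log2 fold change of 0.57 ± 0.28 (SE; adjusted p = 0.792, edgeR). Lrp1, an uptake receptor, had -0.34 ± 0.17 (SE; adjusted p = 0.792, edgeR), and C1qbp 0.17 ± 0.17 (SE). Cd93, a receptor once linked to C1q, had 15.3, 38.1 and 28.8 TPM in wild-type and 61.2, 27.6 and 29.9 TPM in Ts1Cje, close to the profile of Itgam. Itgax (CD11c), of complement receptor 4, was at 101 TPM in wild-type replicate 1 and 19.5 to 53.4 TPM in the other 5 libraries. Its log2 fold change of -0.46 ± 0.63 (SE) was 0.69 without that library.

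**Figure D5:**
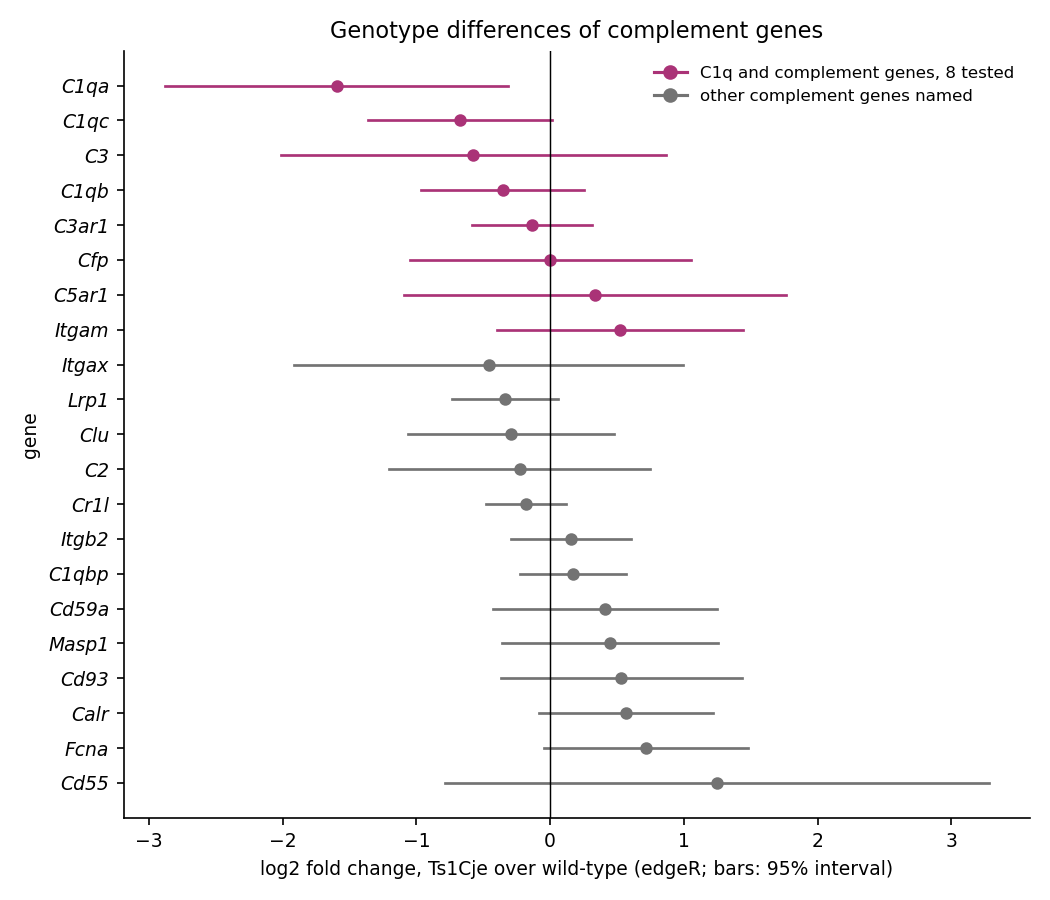
Log2 fold change of Ts1Cje over wild-type with 95% intervals (edgeR, n = 3 per genotype) for the 8 tested genes described (purple) and 13 other complement genes (grey). Of the 21 intervals, that of C1qa, -2.88 to -0.31, is the one that leaves out 0, before adjustment over all genes.

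C4b, a form of C4, which is cleaved after C1 is active and then binds C2, was below the count needed for the test. It had 9, 16 and 18 counts in wild-type libraries against 0, 0 and 1 in Ts1Cje replicates 1 to 3 (chr17:34728380-34743882, minus strand), and the groups did not overlap. The ratio of summed scaled counts, wild-type over Ts1Cje, was 49.6 with an exact 95% interval of 8.43 to 2002, which covers counting error only. With no filter on counts edgeR gave it an unadjusted p of 0.00571 and an adjusted p of 0.619 over 24506 genes. C4a, a near-identical copy, had 37 counts in all, 11, 0 and 2 in wild-type libraries against 0, 10 and 14 in Ts1Cje replicates 1 to 3. Its log2 fold change was 0.70 ± 1.52 (SE; adjusted p = 0.936, edgeR), not in the direction of C4b. Reads of the pair may not have been told apart, so the ratio of C4b alone may not hold for the pair. Vsig4, a complement receptor of tissue macrophages, was chosen after its values were seen: it had 0, 2 and 0 counts in wild-type libraries against 4, 16 and 10 in Ts1Cje replicates 1 to 3. Its ratio, Ts1Cje over wild-type, was 13 with an interval of 3.30 to 112 for counting error, and with no filter the adjusted p was 0.765 by edgeR.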

How the data were processed

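RNA was sequenced as 6 libraries, 3 wild-type and 3 Ts1Cje. Per the labels' protocols, a SMART-seq kit turned total RNA into libraries. Per the submitters' processing notes, FastQC 0.11.7, Trimmomatic 0.38, HISAT2 2.1.0, featureCounts 1.6.3 and mm10 were used, and a strand setting was not found there. Raw counts per gene and TPM are both as the authors deposited them. The deposited TPM were proportional to count over length within 0.1% for 11873 of 11873 genes with 10 or more counts in every library, and for the 9 genes the length was that of the GENCODE M21 exons merged. Coordinates are those of the files.

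Counts were tested with edgeR 4.0.16 in R 4.3.3 (TMM factors, filterByExpr at its minimum count of 10 and minimum total of 15, quasi-likelihood, genotype as the only term, Benjamini-Hochberg over 13821 genes, threshold 0.05). The SE is the log2 fold change divided by the root of F. Intervals are at 95%. Total counts of 25484294 to 32658148 set the precision of low genes, and reads without molecular identifiers are not independent molecules. The tests were also run on simulated counts with the same dispersion for every gene, which does not show their power on these data. The members and lists were chosen with earlier results of these data known. All 9 genes are named; of the 44 other complement genes, those with a mean of at least 10 TPM, an unadjusted p under 0.05, and Itgb2, Cd93, C4b and Masp1 (1 further gene is not reported here); and the 3 genes nearest in profile to C1qa, C1qb, C1qc, C3 and Itgam with a mean log2 CPM above 1. C1ra, C1s1, C8g, C4a, Cfd and genes named at 0 were added from the list to describe it. Alternatives were other factors, filters, DESeq2 1.42.0, limma 3.58.1 (voom, and log2 TPM with pseudocounts of 1 and 0.1), the replicate block and each library left out.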

Additional observations from a re-analysis of the deposited data

How the results depend on the processing

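The number of the 9 genes called was 0 under all 17 alternatives, and so was that of the 44 other complement genes. Over all genes edgeR called 1, DESeq2 56, edgeR without the count filter 3, with the replicate block 0 and without wild-type replicate 3 6. C1qa, C1qb, C1qc, C3 and C3ar1 kept a negative and Itgam a positive log2 fold change under every alternative run. Leaving out 1 library in turn gave -2.02 to -0.96 for C1qa, -0.58 to -0.19 for C1qb, -0.95 to -0.46 for C1qc, -1.39 to -0.22 for C3, -0.24 to -0.04 for C3ar1 and 0.17 to 0.94 for Itgam. For C5ar1 the range was -0.35 to 1.02, with -0.06 without wild-type replicate 1. Cfp lay at 0 and changed sign under scalings and tools: -0.0016 with RLE factors and with DESeq2, -0.033 with upper-quartile factors, -0.0053 with the stricter filter, and -0.13 with limma-voom and with limma on log2 TPM at either pseudocount or with no minimum. Without 1 library it ranged from -0.47 to 0.37, with -0.24 without wild-type replicate 1 and -0.0076 without Ts1Cje replicate 1. C2 became positive at 0.32 and 0.03 without wild-type replicate 1 and Ts1Cje replicate 1, Itgax was 0.69 without wild-type replicate 1, and Itgb2 was -0.047 without Ts1Cje replicate 3; without 1 library they ranged from -0.51 to 0.32 for C2, -0.85 to 0.69 for Itgax and -0.047 to 0.28 for Itgb2. Ranges of the same kind were 0.52 to 2.46 for Cd55, 0.12 to 0.83 for Cd93, 0.35 to 0.91 for Calr and 0.051 to 0.28 for C1qbp. The cause of these changes was not tested. The labels do not say that a lot number links the genotypes, and correlations of deviations across 10983 genes between same-numbered libraries were -0.27, -0.05 and -0.14 for lots 1 to 3, which does not show a pairing. With the replicate block C1qa had -1.32 (unadjusted p = 0.0113, adjusted p = 0.932 by edgeR) and Cfp -0.087, and 0 of the 9 genes were called. Cfb, C4b and Vsig4 rest on few counts.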

Other observations

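C1qa had the same order of replicates in both genotypes, with replicate 2 highest and replicate 3 lowest (1203, 666 and 217 TPM in wild-type and 297, 250.03 and 150.4 TPM in Ts1Cje replicates 2, 1 and 3). Of the 8 tested complement genes 1, C1qa, did so, as did 13.6% of 10983 genes with a mean log2 CPM above 1. This pattern was noticed in the data, and the labels do not say that a lot number links the genotypes.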
